A study of Mus musculus with 12 samples.

Results

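Medial ganglionic eminence (MGE) transcription factors were examined in the chromatin of immature cortical interneurons (CINs), as a set of 6 named genes, *Nkx2-1*, *Lhx6*, *Lhx8*, *Sox6*, *Satb1* and *Maf*, out of 21911 protein-coding genes. The set was given by gene name and its rule used no measured value. It was chosen with earlier results of these data known. For each gene, peaks were counted from 5 kb upstream of its 5′ end to the end of the gene on mm10. Distal H3K27ac peaks listed in one population only were collected up to 200 kb from the gene. All 6 genes were found in the annotation.

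Cells came from neocortex of *Gad67-GFP* heterozygous mice at postnatal day 2, of mixed background with outcrossing to CD-1 mice. GFP is driven from the *Gad67* (*Gad1*) locus and marks GABAergic cells, so GFP+ cells were taken as CINs and GFP- cells, which include projection neurons and glia, as non-CINs. The GFP+ gate does not separate MGE-derived CINs from those of the caudal ganglionic eminence, and each sample pooled tissue from several litters. For each population there were 2 replicates of H3K27ac and 2 of H3K27me3, which gives 8 peak lists, and 4 input samples entered only through the authors' peak calling. All samples carried the GFP allele and none was treated.

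The MGE is the part of the embryonic subpallium that produces most somatostatin and parvalbumin interneurons of the cortex. NKX2-1 is the homeodomain factor that specifies MGE progenitors and is switched off in interneurons bound for the cortex. LHX6, a LIM-homeodomain factor induced by NKX2-1, stays on in these cells and controls their migration and subtype identity, while LHX8, its close relative, is best known from cholinergic neurons of the basal forebrain. SOX6 and SATB1 act after LHX6 in positioning and maturation, and MAF (c-MAF) is a bZIP factor of the same lineage. H3K27ac is a mark of active promoters and enhancers, and H3K27me3, laid down by the Polycomb machinery, marks poised and repressed ones.

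The lists held 46040 to 62505 peaks for H3K27ac and 36662 to 45081 for H3K27me3, after calling at a *q* of 0.01. Depth was not given, so it is described only by these counts, and a missing peak means only that none was called. Fold enrichment was ranked within its own list, and a percentile is the share of peaks in that list with a lower or equal fold. A gene was called different where both CIN values lay above, or both below, both non-CIN values. An exact two-sided permutation test of 2 lists against 2 cannot give *p* below 0.333, so counts of genes were read against the share of all 21911 genes that met the same rule. The sort was visible at *Gad1* and *Gad2*, which encode the enzymes of GABA synthesis. H3K27ac peaks covered 11544 and 9640 bp of the *Gad1* window in the CIN lists and 219 and 0 bp in the non-CIN lists. For *Gad2* these values were 12881 and 9710 bp against 215 and 652 bp. Both genes also had H3K27me3 in all 4 lists, with 12577 and 14690 bp against 14825 and 15441 bp at *Gad1*, and 9868 and 12724 bp against 12663 and 13198 bp at *Gad2*, where the populations overlapped.

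The 6 genes fell into 2 kinds of chromatin, and the same split was seen in CINs and non-CINs. *Nkx2-1*, *Lhx6* and *Lhx8* had no H3K27ac peak in their windows in any of the 4 lists, and lay under long H3K27me3 peaks in each of the 4 H3K27me3 lists. *Sox6*, *Satb1* and *Maf* had peaks of both marks in all 8 lists. Of all genes, 33.1% had no H3K27ac peak in any list, 5.69% combined this with H3K27me3 in all 4 lists, 56.8% had H3K27ac in all 4 lists and 11% had both marks in all 8. All 6 genes had H3K27me3 in all 4 lists, against 21.1% of all genes. None of the 6 had more H3K27ac in both CIN lists than in both non-CIN lists, by covered length (11.9% of all genes) or by the percentile of the strongest peak (13.9%). None had less H3K27ac in CINs by covered length (12.6%). Nor had any of them less H3K27me3 in CINs by the same measures (4.56% and 5.66%). These counts of 0 set every CIN list against every non-CIN list. *Nkx2-1*, *Lhx6* and *Lhx8*, without an H3K27ac peak in any list, could not be called different in H3K27ac. *Nkx2-1* could not differ in H3K27me3 length either, since peaks covered 100% of its window in all 4 lists. Lists compared only with the one of the same replicate number gave more H3K27ac in CINs by length in both replicates for 1 gene, *Satb1* (19.3% of all genes). They gave less H3K27me3 by length for 3, *Lhx6*, *Satb1* and *Maf* (10.4%), and a lower H3K27me3 percentile for 2, *Nkx2-1* and *Lhx6* (9.79%). In the other direction, the H3K27ac percentile was lower in CINs within both replicates for *Sox6*, *Satb1* and *Maf*. H3K27me3 was longer in CINs within both for *Lhx8* and *Sox6*, with a higher percentile for *Sox6*. Shares of all genes for these directions within replicates were not computed. In replicate 1 alone, 2 genes had more H3K27ac in CINs by length (*Sox6* and *Satb1*, against 36.5% of all genes), and in replicate 2 alone 2 did (*Satb1* and *Maf*, 27.6%). The same 3 genes had less H3K27me3 by length in either replicate (*Lhx6*, *Satb1* and *Maf*, against 20.1% and 18.9%). By percentile, 4 genes had lower H3K27me3 in replicate 1 alone (*Nkx2-1*, *Lhx6*, *Lhx8* and *Satb1*, 19.9%) and 3 in replicate 2 alone (*Nkx2-1*, *Lhx6* and *Maf*, 19%). Whether same-numbered lists are pairs is not given by the labels.

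**Figure D1:**
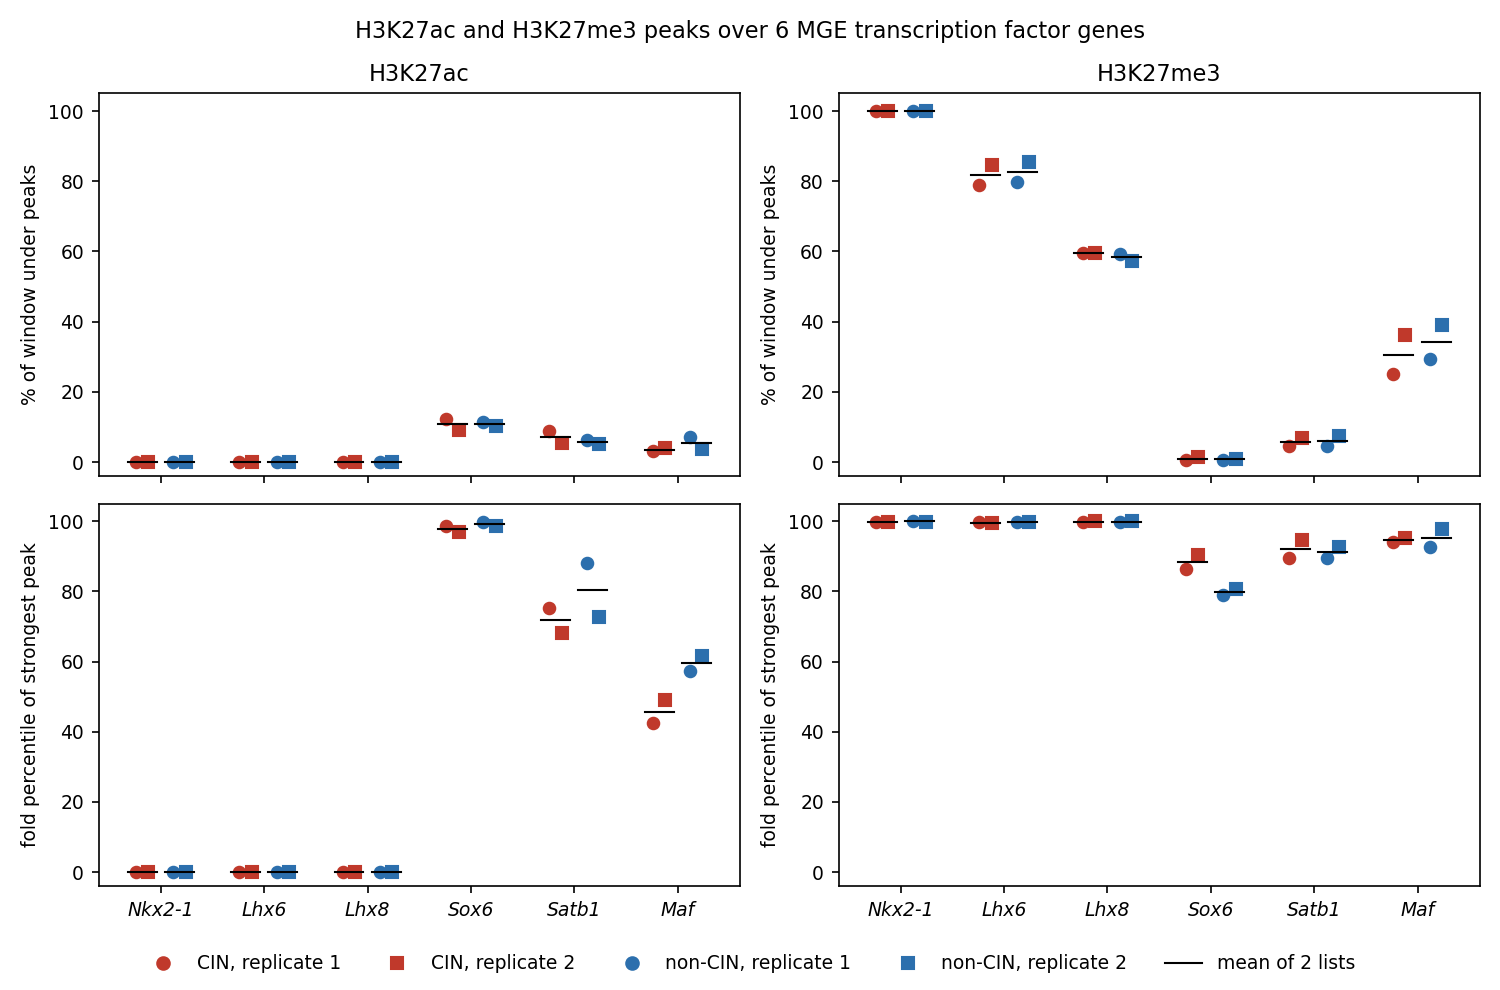
Share of each gene window under peaks (top, percent) and fold percentile of its strongest peak (bottom, 0 where there was none) in each list, with H3K27ac at left and H3K27me3 at right. Points are single lists of CINs (red) and non-CINs (blue), circles replicate 1 and squares replicate 2, and bars are means of 2 lists. *Nkx2-1*, *Lhx6* and *Lhx8* sit at 0 for H3K27ac and above percentile 99 for H3K27me3 in all 4 lists of each mark.

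The promoters under these marks are shown for the first 3 genes and for *Sox6*, since H3K27ac at their 5′ ends differed. RefSeq promoters (GRCm38.p6, the build of the peak lists) matched 5 of the 6 genes, and *Maf* had no entry. Of the several promoters that RefSeq has for some genes, the one nearest the 5′ end is given here, and *Satb1* is described by its counts only. The stretches end at the annotated start site or at the first exon, are written 5′ to 3′ on the strand of the gene, and have CG dinucleotides in capitals.
Nkx2-1 promoter, chr12:56536909-56537158, minus strand: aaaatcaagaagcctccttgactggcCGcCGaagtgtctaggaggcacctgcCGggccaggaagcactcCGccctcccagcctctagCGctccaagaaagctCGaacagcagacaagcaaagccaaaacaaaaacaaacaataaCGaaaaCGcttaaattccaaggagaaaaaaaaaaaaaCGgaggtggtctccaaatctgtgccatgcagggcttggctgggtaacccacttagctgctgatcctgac
Lhx6 promoter, chr2:36105409-36105658, minus strand: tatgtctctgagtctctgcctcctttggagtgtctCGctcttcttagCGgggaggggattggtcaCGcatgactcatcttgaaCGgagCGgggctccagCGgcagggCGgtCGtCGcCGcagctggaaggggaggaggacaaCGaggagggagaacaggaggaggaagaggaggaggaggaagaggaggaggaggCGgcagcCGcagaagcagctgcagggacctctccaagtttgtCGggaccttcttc
Lhx8 promoter, chr3:154330660-154330810, minus strand: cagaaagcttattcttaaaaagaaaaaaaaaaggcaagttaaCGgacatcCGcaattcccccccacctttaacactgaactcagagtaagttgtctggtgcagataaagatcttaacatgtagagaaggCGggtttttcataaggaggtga
Sox6 promoter, chr7:116038745-116038994, minus strand: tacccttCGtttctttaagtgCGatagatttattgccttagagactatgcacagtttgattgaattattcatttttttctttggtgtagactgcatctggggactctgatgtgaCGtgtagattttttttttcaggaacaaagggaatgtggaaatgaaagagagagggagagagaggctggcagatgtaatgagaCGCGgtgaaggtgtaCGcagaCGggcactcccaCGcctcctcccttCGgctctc
Over the full RefSeq stretch, from 250 bp before to 50 bp after the start, the *Lhx6* promoter held 16 CG dinucleotides and that of *Nkx2-1* held 12. Those of *Sox6* and *Lhx8* held 11 and 4. The median of 32851 RefSeq promoters was 7, and the *Lhx8* promoter was at percentile 38.0 of them. The other promoters of *Lhx6* held 17 and 11, the 6 of *Sox6* held 2 to 13, and the 5 of *Satb1* held 3 to 45.

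*Nkx2-1* (ENSMUSG00000001496, chromosome 12, 56531958–56536908, minus strand) had the longest merged H3K27me3 peaks of the 6 genes. H3K27me3 covered 100% of its 9951 bp window in all 4 lists. The strongest peak was at percentiles 99.9 and 99.8 for CINs, with 99.97 and 99.8 for non-CINs, so the populations overlapped. After merging of peaks 500 bp or less apart, the peak over its 5′ end was 47.1 and 101.4 kb long in the CIN replicates, with 41.9 and 44.2 kb in those of non-CINs. These ranked 10th and 3rd by length among the H3K27me3 peaks of the CIN lists, and 16th and 23rd in the non-CIN lists. The greater length in CIN replicate 2 came from the closing of gaps. Over the same 101366 bp, H3K27me3 peaks covered 98.7% in CIN replicate 1 and 97.5% and 97.1% in the non-CIN lists, with the longest gap between 606 and 1043 bp. As deposited, without merging, the peak over the 5′ end was 16.9 and 29.3 kb in the CIN replicates, with 17.5 and 27.4 kb in those of non-CINs, and was longer in replicate 2 of both populations. The deposited peak of *Lhx6* exceeded it in replicate 1 of both, at 23004 and 23072 bp. No H3K27ac peak was called in this stretch, and the nearest one to the 5′ end was 148.6 and 100.2 kb away in the CIN lists and 190.7 kb away in both non-CIN lists. Within 200 kb of *Nkx2-1* there were 3 distal H3K27ac regions, each in a single list, and no region of one population only.

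*Lhx6* (ENSMUSG00000026890, chromosome 2, 36081953–36105408, minus strand) lay under H3K27me3 from upstream of its 5′ end through most of the gene. Of the 28456 bp window, 22468 and 24062 bp were under peaks in the CIN replicates, with 22717 and 24327 bp in those of non-CINs. The means were 23265 ± 1127 bp and 23522 ± 1138 bp (SD, *n* = 2), and the difference of −257 bp, CIN minus non-CIN, was below the spread between replicates. Within replicates 1 and 2 it was −249 and −265 bp, and the mean difference was 62 bp when peaks were not merged. The strongest peak was at percentiles 99.7 and 99.5 in the CIN replicates, with 99.8 and 99.6 in those of non-CINs. The merged peak over the 5′ end was 23.0 and 26.4 kb long in the CIN replicates, with 24.4 and 26.7 kb in those of non-CINs, and it reached 5.54 to 7.36 kb upstream. All 4 annotated start sites of *Lhx6*, spread over 1.35 kb, had H3K27me3 and no H3K27ac within 1 kb in every list. The nearest H3K27ac peak to the 5′ end was 27.9 kb away in CIN replicate 1 and 30.2 to 30.3 kb away in the other lists.

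*Lhx8* (ENSMUSG00000096225, chromosome 3, 154306294–154330659, minus strand) was covered by H3K27me3 over 17502 and 17460 bp in the CIN replicates, with 17439 and 16811 bp in those of non-CINs, of a 29366 bp window. Both CIN values lay above both non-CIN values, by 356 bp on average (exact two-sided permutation *p* = 0.333), and *Lhx8* was the only one of the 6 genes with more H3K27me3 in CINs by covered length (3.05% of all genes). The difference was 27.5 bp without merging, 19 bp with peaks merged up to 1000 bp apart and 0 bp within 5 kb of the 5′ end. The direction did not hold in a window from 10 kb upstream to 10 kb past the gene, where the difference of means, CIN minus non-CIN, was −177.5 bp. The strongest peak was at percentiles 99.7 and 99.9 in the CIN replicates, with 99.8 and 99.9 in those of non-CINs. The merged peak over the 5′ end was 18.3 and 19.6 kb in the CIN replicates, with 19.1 and 18.9 kb in those of non-CINs. The nearest H3K27ac peak was 50.7 and 107.7 kb away in CINs and 137 kb away in both non-CIN lists.

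These 3 genes shared 2 features that few genes had. The strongest H3K27me3 peak was at percentile 99 or above in all 4 lists for 3 of 6 genes, against 1.29% of all genes. A merged H3K27me3 peak of 10 kb or more lay over the 5′ end in all 4 lists for the same 3 genes, against 1.24% of all genes. For *Lhx8* this needed the merging, since its deposited peaks in replicate 2 were 8954 bp (CINs) and 9166 bp (non-CINs). By comparison, the median merged H3K27me3 peak was 442 to 762 bp long.

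**Figure D2:**
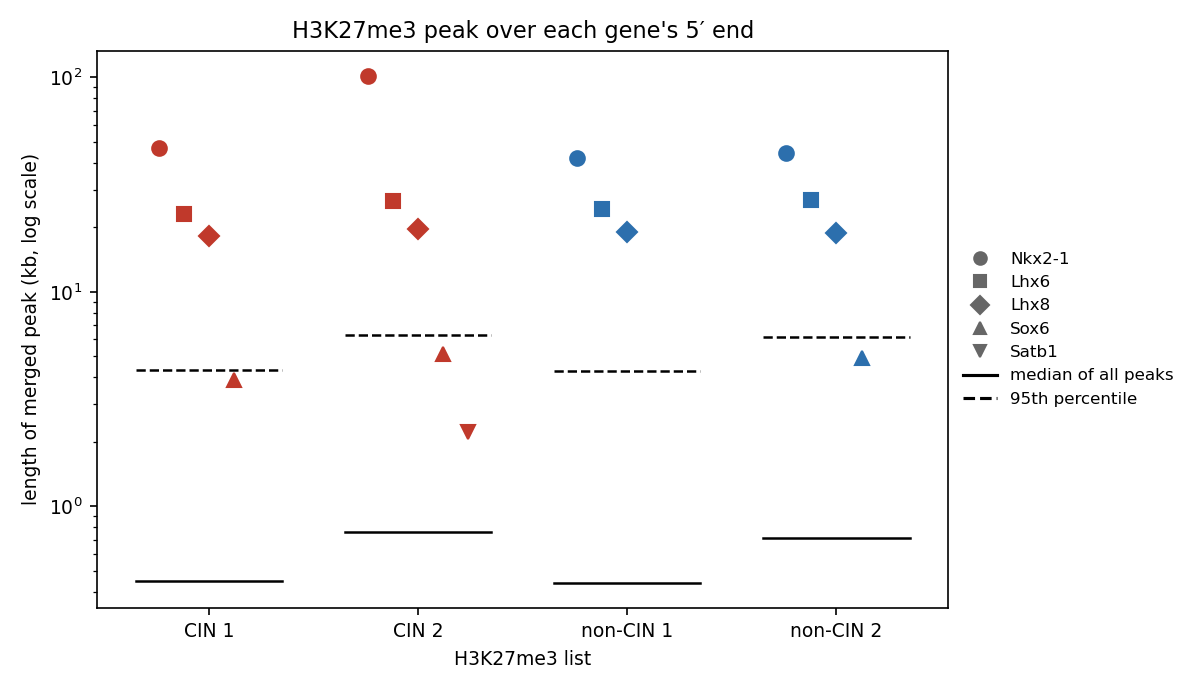
Length of the merged H3K27me3 peak over the 5′ end of each gene (kb, log scale) in the 4 lists, with CINs in red and non-CINs in blue. Solid lines are the median of all merged peaks of a list and dashed lines the 95th percentile. *Nkx2-1*, *Lhx6* and *Lhx8* lie above the dashed line in all 4 lists and *Sox6* and *Satb1* below it wherever a peak spans their 5′ end.

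*Sox6* (ENSMUSG00000051910, chromosome 7, 115470872–116038796, minus strand) held the most H3K27ac of the 6 genes, in a window of 572925 bp. Peaks covered 70443 and 52894 bp in the CIN replicates, with 64891 and 58520 bp in those of non-CINs, in 43, 30, 44 and 33 merged peaks. The means of 61669 ± 12409 bp and 61706 ± 4505 bp (SD, *n* = 2) differed by less than the spread between replicates. Of 55 distinct H3K27ac regions in the window, 23 were in all 4 lists, 1 was in both CIN lists only, 3 were in both non-CIN lists only and 18 were in a single list. The strongest H3K27ac peak was at percentiles 98.6 and 96.9 for CINs, with 99.7 and 98.7 for non-CINs. Both CIN values were the lower, with a mean difference of −1.41 percentile points (exact permutation *p* = 0.333). H3K27me3 lay near the 5′ end of the gene and covered 3904 and 7549 bp in the CIN replicates, with 3431 and 4937 bp in those of non-CINs. Its strongest peak was at percentiles 86.5 and 90.3 in the CIN replicates, with 78.9 and 80.8 in those of non-CINs, so that CINs were higher by 8.54 points (exact permutation *p* = 0.333). *Sox6* was the only one of the 6 genes with a higher H3K27me3 percentile in CINs (3.92% of all genes).

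Almost all H3K27me3 of *Sox6* lay under H3K27ac, with 3707 and 6705 bp under both marks for the CIN replicates, with 3431 and 4285 bp for those of non-CINs. The marks were measured in separate libraries of many cells, so both marks on one allele and each mark in different cells cannot be told apart. Of the 6 annotated start sites of *Sox6*, the first, 52 bp inside the gene's 5′ end, had both marks in all 4 lists of each. The next, 7.75 kb downstream, had H3K27ac in all 4 lists and H3K27me3 in CIN replicate 2 only, and those at 43.7 and 214.1 kb had H3K27ac in all 4 lists and no H3K27me3. A pair of start sites at 192.7 kb had neither mark within 1 kb in any list. The start site of *1110004F10Rik*, on the other strand, is 601 bp from the 5′ end of *Sox6*, and peaks there cannot be assigned to one of them.

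*Satb1* (ENSMUSG00000023927, chromosome 17, 51736187–51833290, minus strand) carried the marks at different start sites. H3K27me3 lay within 1 kb of the 5′ end in all 4 lists, where H3K27ac was listed in CIN replicate 1 only, as a 263 bp peak. At 2 further start sites, 20.6 and 22.4 kb downstream, all 4 lists had H3K27ac and none had H3K27me3. No base of the window was under both marks in lists of the same number, while the 263 bp H3K27ac peak of CIN replicate 1 met an H3K27me3 peak of CIN replicate 2. H3K27ac covered 9060 and 5404 bp in the CIN replicates, with 6403 and 5322 bp in those of non-CINs, with the strongest peak at percentiles 75.3 and 68.2 against 87.9 and 72.7. H3K27me3 covered 4630 and 7011 bp in the CIN replicates, with 4793 and 7689 bp in those of non-CINs. The populations overlapped in each of these measures. Between lists of the same number, CINs had longer H3K27ac at a lower percentile, and shorter H3K27me3, in both replicates.

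*Maf* (ENSMUSG00000055435, chromosome 8, 115682942–115707794, minus strand) had 1 merged H3K27ac peak in each list, at its 5′ end. The peak was 975 and 1155 bp in the CIN replicates, with 2105 and 1138 bp in those of non-CINs, and was at percentiles 42.5 and 49.0 for CINs, with 57.3 and 61.7 for non-CINs. The CIN percentiles were the lower, with a mean difference of −13.7 points (exact permutation *p* = 0.333). *Sox6* and *Maf* were the 2 of 6 genes with a lower H3K27ac percentile in CINs, against 10.4% of all genes. H3K27me3 flanked this peak and covered 7493 and 10766 bp in the CIN replicates, with 8797 and 11627 bp in those of non-CINs, at percentiles 94.2 and 95.2 against 92.6 and 97.9. Only 279, 128, 599 and 0 bp were under both marks, in the order CIN replicates 1 and 2 and non-CIN replicates 1 and 2. H3K27me3 lay within 1 kb of the 5′ end in 3 of the 4 lists and not in non-CIN replicate 2.

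**Figure D3:**
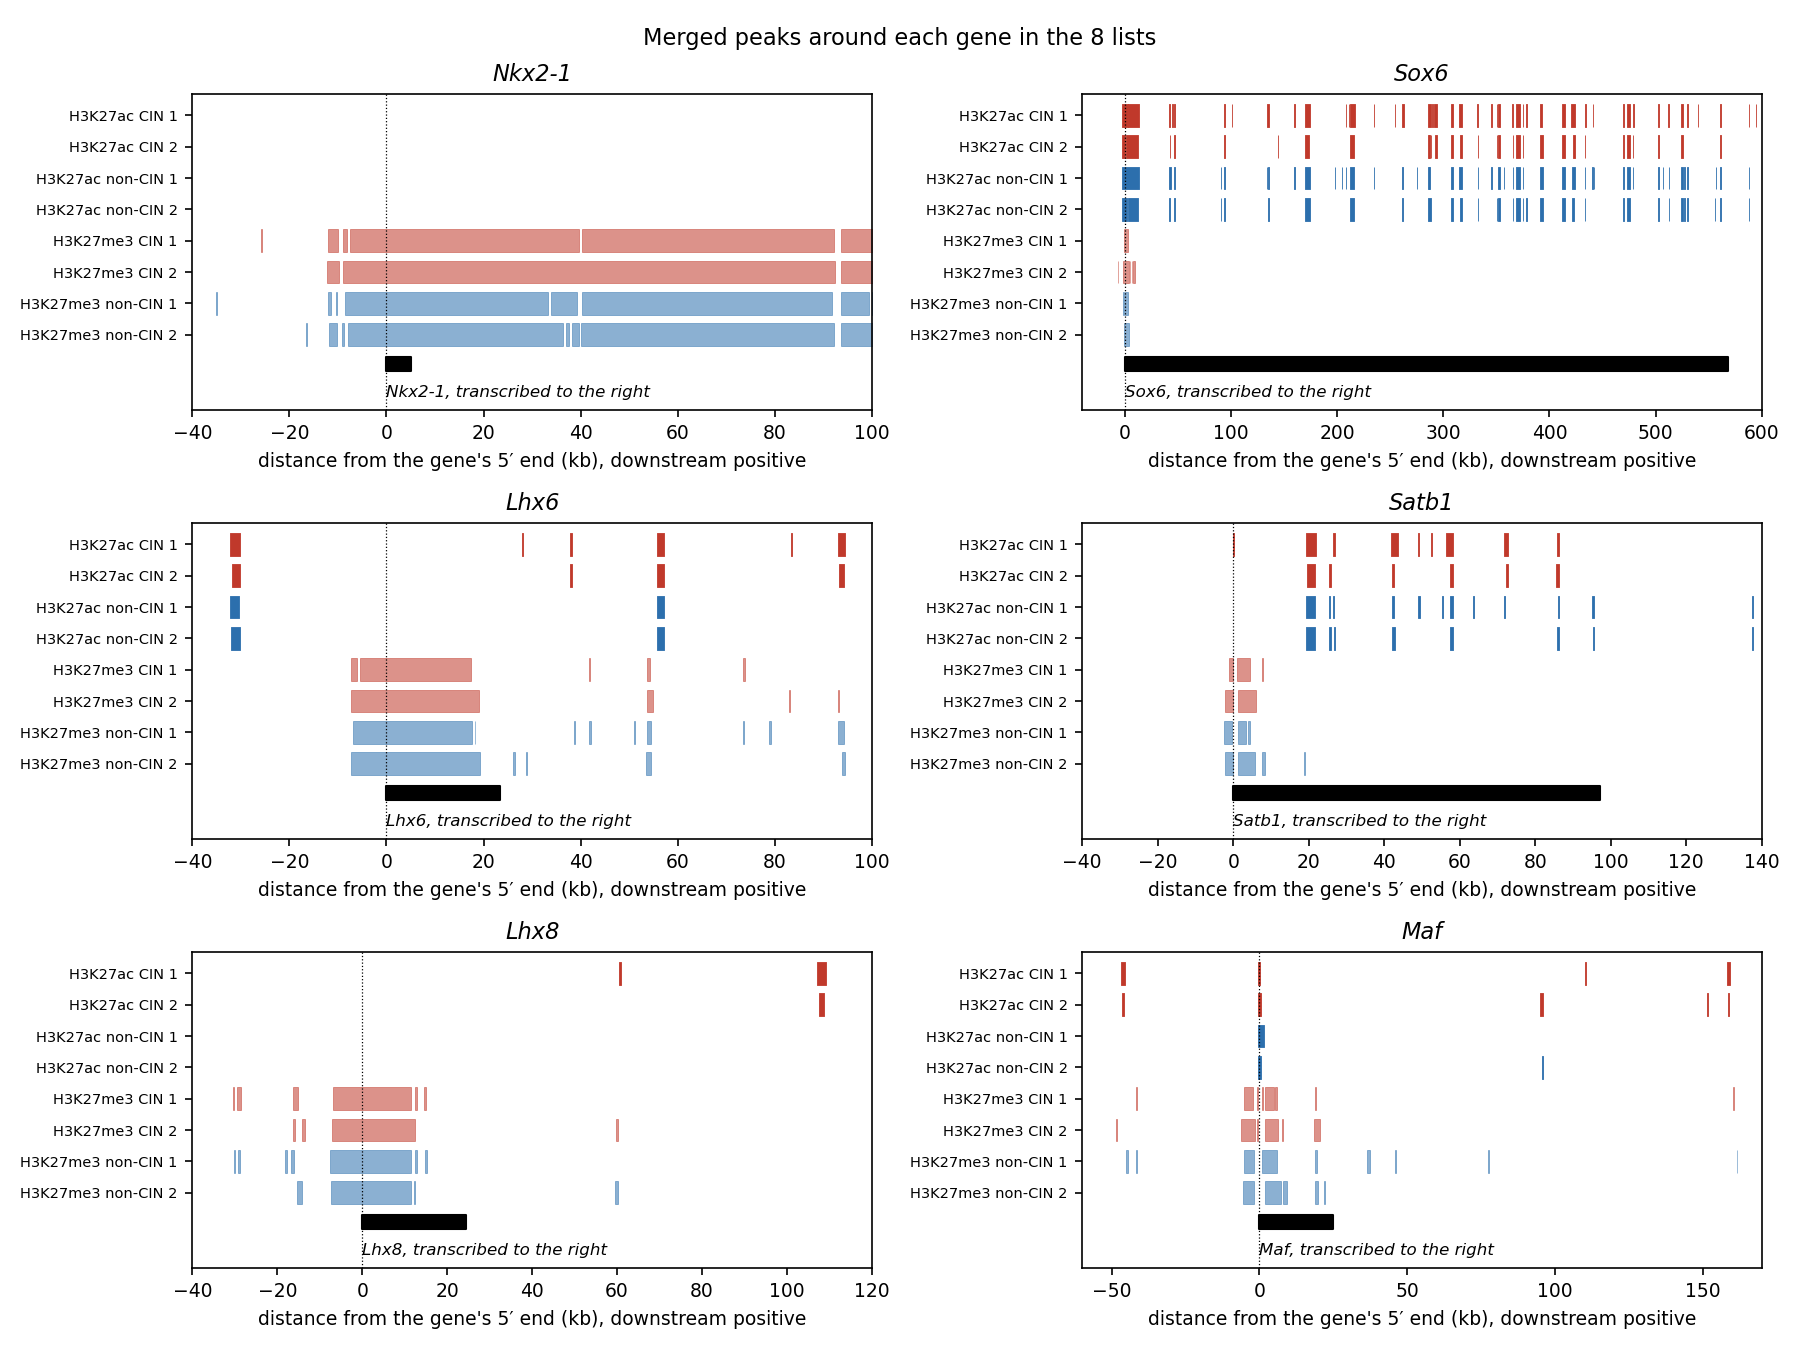
Merged peaks around the 6 genes in the 8 lists, by distance from the 5′ end of the gene (kb, transcribed to the right, gene in black), with CINs in red and non-CINs in blue and H3K27me3 in paler tones. Windows differ in width. H3K27me3 fills the *Nkx2-1*, *Lhx6* and *Lhx8* starts without H3K27ac, sits under H3K27ac at the *Sox6* start, at *Satb1* lies upstream of the H3K27ac that all 4 lists have and flanks it at *Maf*.

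At the 5′ ends, H3K27me3 was within 1 kb in all 4 lists for 5 of 6 genes (11.2% of all genes), and H3K27ac for *Sox6* and *Maf* (45.9%). None of the 6 had H3K27ac there in both CIN lists and neither non-CIN list (0.639%), and with replicate 1 alone *Satb1* did (2.87%). At −log10 *q* of at least 4, H3K27me3 in all 4 lists remained for *Nkx2-1*, *Lhx6* and *Lhx8*. The replicates of H3K27me3 differed in the same way in both populations. Replicate 2 covered more of the window than replicate 1 in CINs and in non-CINs for *Lhx6*, *Sox6*, *Satb1* and *Maf* (4 of 6 genes, 19.7% of all genes), and the replicate 2 lists of this mark also covered more of the genome (44.2 and 49.8 Mb against 34.5 and 39.4 Mb). For H3K27ac, replicate 1 covered more in both populations for *Sox6* and *Satb1* (2 of 6 genes, 35.4% of all genes).

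Distal H3K27ac was then compared, because enhancers of these genes may lie outside their windows. Regions over 1 kb from any protein-coding start site were counted as CIN-only where a CIN peak had no overlap with non-CINs in the list of like number and recurred in the other replicate. Of 4010 such regions in the genome, 7 lay within 200 kb of 4 of the 6 genes, with 3 at *Lhx6*, 2 at *Maf*, 1 at *Lhx8* and 1 at *Sox6*. Of all genes, 37.2% had at least 1. Of 2691 non-CIN-only regions, 6 lay near 3 of the 6 genes, with 3 at *Sox6*, 2 at *Satb1* and 1 at *Lhx6*, and 35.7% of all genes had at least 1. None of the 7 CIN-only regions met a peak in either non-CIN list, and the counts rested on both replicates, since 40 CIN-only regions were found with replicate 1 alone and 15 with replicate 2 alone. Membership by distance does not assign a region to a gene. The counts also scale with the stretch searched, which was 0.968 Mb for *Sox6* and 0.405 to 0.497 Mb for the others.

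The strongest CIN-only region of each gene is shown by the 200 bp at its centre, to show what the called stretches hold. Capitals mark cores searched on both strands, TAATTA (DLX and LHX homeodomains, its own reverse complement), CTTTGT (SOX), CACTTG (NKX2-1), TGCTGA (a MAF half-site) and CTGTCA (MEIS). None of these cores contains another.
Lhx6 region centre, chr2:36011543-36011742, plus strand: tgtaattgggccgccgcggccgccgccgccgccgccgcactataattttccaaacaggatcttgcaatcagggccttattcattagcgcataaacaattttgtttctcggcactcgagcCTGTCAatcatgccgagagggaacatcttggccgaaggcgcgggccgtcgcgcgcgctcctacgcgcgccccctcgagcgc
Lhx8 region centre, chr3:154222348-154222547, plus strand: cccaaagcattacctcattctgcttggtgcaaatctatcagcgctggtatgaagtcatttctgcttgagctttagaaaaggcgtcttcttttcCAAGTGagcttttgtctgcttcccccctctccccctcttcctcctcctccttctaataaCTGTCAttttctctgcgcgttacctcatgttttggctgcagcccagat
Sox6 region centre, chr7:115745427-115745626, plus strand: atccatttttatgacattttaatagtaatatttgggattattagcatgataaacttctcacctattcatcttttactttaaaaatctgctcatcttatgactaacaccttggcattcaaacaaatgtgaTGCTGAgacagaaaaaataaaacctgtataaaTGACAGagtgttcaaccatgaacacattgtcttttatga
Maf region centre, chr8:115548962-115549161, plus strand: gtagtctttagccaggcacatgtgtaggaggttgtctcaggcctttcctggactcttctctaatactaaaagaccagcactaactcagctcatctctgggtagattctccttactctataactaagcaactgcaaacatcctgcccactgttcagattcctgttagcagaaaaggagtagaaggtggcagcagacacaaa
The *Lhx6* and *Lhx8* stretches each held CTGTCA once and that of *Lhx8* also held CACTTG once. The *Sox6* stretch held TGCTGA and CTGTCA once each, and the *Maf* stretch held none of the 5 cores. Over all 7 CIN-only regions, CTGTCA was in 3, CACTTG in 1, TGCTGA in 1 and the others in 0. Among all 4010 CIN-only distal regions, the 5 cores were in 11.2% (TAATTA), 28.0% (CTTTGT), 11.3% (CACTTG), 17.5% (TGCTGA) and 19.5% (CTGTCA) of the 200 bp centres.

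The *Lhx8* region (chromosome 3, 154221905–154222991) was the strongest of the 7. It is 1087 bp long, 108 kb downstream of the *Lhx8* 5′ end, in an intron of *Slc44a5*, and *Lhx8* is the nearest protein-coding start site. Its peaks were at percentiles 80.4 and 73.3 of the CIN lists, which placed it 172nd of 4010 by the lower of the 2. Neither H3K27me3 population had a peak over it. *Lhx8* itself had H3K27me3 over its 5′ end and no H3K27ac in its window in both populations. The distance of this CIN-only region does not assign it to *Lhx8*.

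The first *Lhx6* region (chromosome 2, 36011108–36012178, intergenic) is 93.8 kb downstream of the *Lhx6* 5′ end and 31195 bp from the start site of *Ttll11*, which is nearer. Its peaks were at percentiles 65.9 and 37.5 of the CIN lists. It was the only one of the 7 with opposite marks in the populations. H3K27me3 peaks of both non-CIN lists lay over 1060 and 378 of its 1071 bp, at percentiles 57.02 and 13.2, and no CIN list had one. The nearest H3K27me3 peak of CIN replicate 2, of 200 bp, ended 94 bp from the region, and that of CIN replicate 1 was 19353 bp away. Of all CIN-only distal regions, 22 of 4010 (0.549%) had H3K27me3 in non-CINs alone, with peaks in both of their lists. The centre of the region held 26 CG dinucleotides in 200 bp, against a median of 2, and 0.0748% of CIN-only distal regions held as many. The other 2 regions near *Lhx6* were weak, at percentiles 20.2 and 7.48 (467 bp) and 24.3 and 4.41 (151 bp).

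The *Sox6* region (chromosome 7, 115744631–115746422) is 1792 bp long, in an intron 293 kb downstream of the 5′ end, at percentiles 68.3 and 63.5. The 3 non-CIN-only regions in *Sox6* introns were weaker, with the strongest of 550 bp at percentiles 52.4 and 32.8 and another of 16 bp at 38.6 and 17.2. At *Maf*, the first region (chromosome 8, 115548839–115549285) is 447 bp long, 159 kb downstream of the 5′ end and at percentiles 67.4 and 64.0. The second (115753535–115754279) is 745 bp long, 46.1 kb upstream and at percentiles 66.9 and 30.02. Both are intergenic with *Maf* as the nearest protein-coding gene. *Satb1* had no CIN-only region. Its first non-CIN-only region (chromosome 17, 51737702–51738031) is 330 bp long, in an exon near the end of *Satb1*, at percentiles 52.6 and 40.3.

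**Figure D4:**
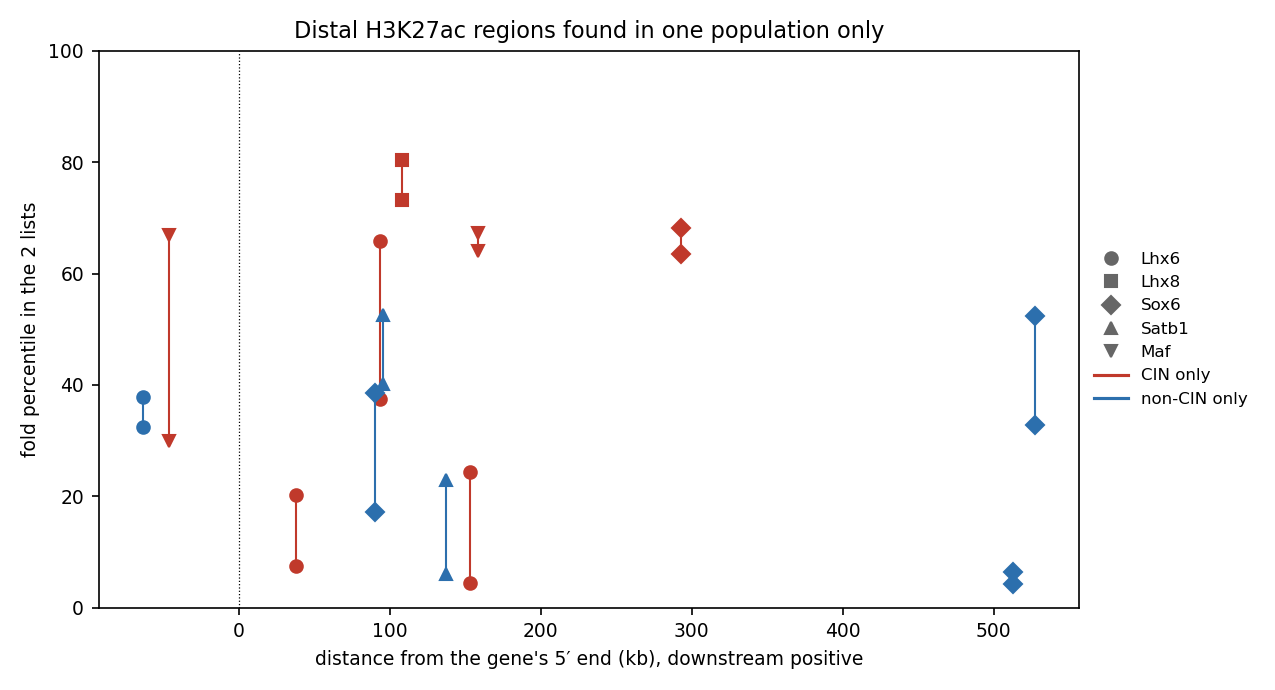
Distal H3K27ac regions of one population only within 200 kb of a member gene, by distance from its 5′ end (kb, downstream positive) and by the fold percentile of the peak in each of the 2 lists of that population, joined by a line. CIN-only regions are red and non-CIN-only regions blue. The *Lhx8* region is highest, at 80.4 and 73.3.

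Other genes of the MGE lineage were compared by the same rules, as a list of 20 chosen with earlier results of these data known. H3K27ac covered more in both CIN lists for 9 of the 20 and less for 1, against 0 and 0 of the 6 MGE transcription factors and 11.9% and 12.6% of all genes. The 9 include the neighbouring pairs *Dlx1* and *Dlx2*, and *Dlx5* and *Dlx6*, whose strongest peaks have the same percentiles within each pair, so they are not separate observations. The median difference in mean covered length was 940.5 bp over the 20, 0 bp over the 6 and 0 bp over all genes. Of the 6, *Nkx2-1*, *Lhx6* and *Lhx8* had no H3K27ac peak in any list. They could not be called different, and each adds a difference of 0 bp to that median. The 3 largest differences in mean H3K27ac were at *Zeb2* (63400 and 42755 bp in CINs, 38016 and 33444 bp in non-CINs), a zinc finger factor needed for the cortical interneuron fate, at *Dlx6* (10235 bp in both CIN lists, 0 in both non-CIN lists) and at *Dlx1* (10869 and 9531 bp, 0 and 0). Among the smallest were those at *Nrp1*, a semaphorin receptor (3939 and 3687 bp in CINs, 5521 and 4299 bp in non-CINs), and *Etv1* (14389 and 9935 bp, 13075 and 11464 bp). *Dlx1* and *Dlx6* thus had H3K27ac in CIN lists where *Lhx6* had none. As at *Lhx6*, H3K27me3 was in all 4 lists, over 10607 to 10869 bp at *Dlx1* and 10235 bp at *Dlx6*. However, 3 of the 20 had the pattern of *Lhx6*, with no H3K27ac peak in any list and H3K27me3 in all 4 (5.69% of all genes). For the list, 16 of 20 had H3K27me3 in all 4 lists (21.1% of all genes), 3 had less in CINs (4.56%) and 16 had at least 1 CIN-only distal region (37.2%), with the neighbouring *Dlx* pairs again not separate observations.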

How the data were processed

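Native ChIP (MNase-digested, not cross-linked) for H3K27ac and H3K27me3 was performed in sorted CINs and non-CINs. Reads were aligned by the authors to mm10 (BWA 0.7.15). They kept reads with a mapping quality of 30 or more and called broad peaks for each replicate against its input with MACS2 (2.2.7 per the processing notes, another version in the methods of the paper) at a *q* of 0.01. The deposited values used were the fold enrichment, a ratio of ChIP to input signal, and the deposited −log10 *q*. Read numbers were not given in the sources used here, so depth is unknown.

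Within a list, peaks separated by at most 500 bp were joined, and the highest fold was taken. Percentiles were ranks among all deposited peaks of a list. Genes came from the GENCODE vM21 basic annotation (protein-coding, 1 for each symbol, assembled chromosomes), and sequences from RefSeq and GRCm38.p6. The 500 promoters checked equalled the genome at their coordinates. Populations were compared by exact permutation tests (two-sided). The study calls the replicates biological, each from pooled litters, and the sources do not say which litters entered which replicate. The genes named were the 6 members, their CIN-only regions, *Gad1* and *Gad2*, for each member the 3 genes with the most similar percentiles over the 8 lists, and the 3 largest and 3 smallest H3K27ac differences of 20 MGE lineage genes, of which 1 is not reported here. Other genes were named as neighbours or hosts of regions. Members and gene lists were chosen with earlier results of these data known. Other merging, thresholds, windows, distances and overlaps were tried, and each replicate was left out. The tools were matplotlib 3.10.9, pysam 0.24.0, SciPy 1.17.1, NumPy 2.4.6 and Python 3.11.15. Interval operations were tested on simulated data against bedtools 2.31.1.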

Additional observations from a re-analysis of the deposited data

How the results depend on the processing

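With 2 lists in each group no exact test could pass 0.05, and unknown depth means that an uncalled peak may be a weak one. Of 82 recomputed counts, 65 stayed within 1.5 times the count given and 17 moved. Leaving out a replicate gave 2 to 2 genes with more H3K27ac in CINs by length, 3 to 3 with less H3K27me3 by length, 3 to 4 with a lower H3K27me3 percentile and 0 to 1 with H3K27ac at the 5′ end in CINs only. It gave 15 to 40 CIN-only and 18 to 27 non-CIN-only distal regions. At −log10 *q* of at least 4, 1 gene had a lower H3K27me3 percentile in CINs (*Lhx6*) and 3 had H3K27me3 at the 5′ end in all 4 lists. With non-CIN peaks counted only where they covered 50% of a region, there were 13 CIN-only regions. In the window reaching 10 kb past either end, the *Lhx8* H3K27me3 difference was −177.5 bp, and the cause was not tested. Taking any annotated start site, a choice made after seeing the data, gave 0 genes with H3K27ac in CINs only and 5 with H3K27me3 in all 4 lists.

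Deviations in covered length were alike between same-numbered lists (correlation across genes of 0.314 for H3K27ac over 14650 genes and 0.722 for H3K27me3 over 8933 genes). No label says what a number marks, and 2 pairs are too few to show a pairing. With the replicate block, 1 gene had more H3K27ac in CINs by length (*Satb1*), 3 had less H3K27me3 by length (*Lhx6*, *Satb1* and *Maf*) and 2 had a lower H3K27me3 percentile (*Nkx2-1* and *Lhx6*), against 19.3%, 10.4% and 9.79% of all genes. The block also gave a lower H3K27ac percentile in CINs for *Sox6*, *Satb1* and *Maf*. H3K27me3 was longer in CINs for *Lhx8* and *Sox6*, with a higher percentile for *Sox6*. No share of all genes was computed for these. Without the replicate block, 9 distal regions were CIN-only and 7 were non-CIN-only.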

Other observations

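The genes with the most similar pattern were sought by Euclidean distance between the 8 percentiles of the strongest peaks, over 8 lists from the same 2 sorted populations. For *Nkx2-1* they were *Vax2*, *Gata4* and *Osr2* (distances of 0.109 to 0.114 percentile points), for *Lhx6* they were *Olig3*, *Msx1* and *Barhl1* (0.0734 to 0.123), and for *Lhx8* they were *Foxl2*, *Nkx6-1* and *Otp* (0.107 to 0.114). For *Sox6* the nearest were *1110004F10Rik*, which starts beside it and has the same H3K27me3 percentiles (1.31), *Rfx4* and *Glyctk* (9.01 and 11.2). For *Satb1* they were *Chst9*, *Mctp1* and *Fosl2* (9.28 to 12.3), and for *Maf* *Arhgap22*, *Habp4* and *Rbm47* (9.23 to 15.8).

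In the list of 7 caudal ganglionic eminence transcription factors, 4 had more H3K27ac in both CIN lists and 1 had less, against 11.9% and 12.6% of all genes. Among 8 pallial transcription factors, 0 had more and 3 had less. All 7 and 7 of the 8 had H3K27me3 in all 4 lists (21.1% of all genes). Of 4 GABAergic markers 3 had more H3K27ac in CINs, and all 4 astrocyte markers had less. In these astrocyte genes the CIN lists still held 60051 and 54726 bp under H3K27ac, and the non-CIN lists 84493 and 85233 bp. Of 6 projection neuron markers 1 had more and 1 had less, of 4 oligodendrocyte markers 1 and 1, of 4 microglia markers 0 and 1, and of 4 endothelial markers 0 and 0. The part that these other cells had in the values at the MGE genes was not tested.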
